A study of Mus musculus with 6 samples.

Results

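The troponin genes comprised 8 of the 46078 genes in the count table: *Tnnt1*, *Tnnt2* and *Tnnt3* for troponin T, *Tnni1*, *Tnni2* and *Tnni3* for troponin I, and *Tnnc1* and *Tnnc2* for troponin C. They were taken by gene symbol, and all 8 were among the 14828 genes tested in the counts and the 11691 tested in TPM. RNA was measured in C2C12 cells, an established line of mouse myoblasts that stop dividing and fuse into multinucleate myotubes when serum is withdrawn. The KO cells carried a CRISPR-Cas9 knockout of *Hnrnpa2b1*, which encodes an RNA-binding protein that acts in splicing, and the WT cells kept the gene. Both genotypes were grown for 24 h and then differentiated for 2 days by serum withdrawal with ITS supplement, and 3 libraries of rRNA-depleted total RNA were sequenced for KO (KO1 to KO3) and 3 for WT (WT1 to WT3). The study derived its KO and WT cells as clones after puromycin selection, but which clone gave each library is not stated, so p-values measure the spread between these libraries, which may be in part technical.

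Troponin is the calcium switch of striated muscle. Troponin C binds calcium, troponin I holds actin and myosin apart until it does, and troponin T anchors the complex to tropomyosin on the thin filament. Each subunit is encoded by separate genes for slow, fast and cardiac muscle. *Tnnt1* and *Tnni1* are the slow skeletal forms, *Tnnt3*, *Tnni2* and *Tnnc2* the fast skeletal forms, *Tnnt2* and *Tnni3* the cardiac forms, and *Tnnc1* serves both slow and cardiac muscle. Embryonic skeletal muscle and differentiating myoblasts also transcribe *Tnnt2*, so its RNA does not by itself mark heart cells.

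Troponin I and T genes lie in pairs in the genome, and the 3 mouse pairs were all present here. On chromosome 1, *Tnni1* (135779434 to 135810989, plus strand) and *Tnnt2* (135836354 to 135852260, plus strand) were 25.36 kb apart. On chromosome 7, *Tnnt1* (4504570 to 4516382, minus strand) and *Tnni3* (4518305 to 4524229, minus strand) were 1.92 kb apart. Elsewhere on chromosome 7, *Tnni2* (142441808 to 142444410, plus strand) and *Tnnt3* (142498836 to 142516009, plus strand) were 54.43 kb apart. *Tnnc1* lies on chromosome 14 (31208312 to 31211729, plus strand) and *Tnnc2* on chromosome 2 (164777161 to 164779967, minus strand). Positions are those deposited, which equal the GENCODE M21 annotation of GRCm38 for all 8 genes.

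RefSeq promoters on GRCm38.p6, from 250 bases before to 50 bases after a start site, were found for 6 of the 8 genes, with 8 promoters in all. No promoter was found for *Tnni2* and *Tnnt3*. The windows below are shown because *Tnnt2* and *Tnni1* had lower levels in every KO library than in any WT library, whereas *Tnnt1* did not, and because *Tnnt2* shared an MCAT match with *Tnnc1*. Not every E-box of these genes is shown. *Tnni1* also had CAGGTG, 224 bases before a start, and *Tnnt2* had CACCTG, its reverse complement, 94 bases before one. The E-box letters shown thus do not set *Tnnt1* apart. Capitals mark the matched motif, and each window is read 5′ to 3′ on the strand of its gene.
Tnnt2 E-box, chr1:135836165-135836194, plus strand, 157 bases before the start: gctttatctgagCAGCTGgaggaccacatg
Tnni1 E-box, chr1:135799341-135799370, plus strand, 68 bases before the start: gggaaggaggggCAGCTGgaggggcagcgg
Tnnt1 E-box, chr7:4516116-4516145, minus strand, 158 bases before the start: tgaagccgatgaCAGGTGttggacccccaa
Tnnt2 MCAT, chr1:135836295-135836324, plus strand, 27 bases before the start: tctcctgctgcaCATTCCtccctccgcggg
Tnnc1 MCAT on the opposite strand, chr14:31208242-31208271, plus strand, 58 bases before the start: tgggctgggctgGGAATGtagcaggaggtg
Tnnt1 TATAAA, chr7:4515988-4516017, minus strand, 30 bases before the start: tcagcacctagcTATAAAtccagggggtgc

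Each motif was searched on both strands. The E-box, CANNTG, the letters that MyoD and myogenin recognise, was in 8 of 8 troponin promoters and in 72.3% of all 32851 promoters. MCAT, CATTCC, the letters that TEAD factors recognise, was in 2 of the 8 promoters, 1 each of *Tnnt2* and *Tnnc1*, and in 14.7% of all promoters. CCACCC was in 5 of the 8, from 4 of the 6 genes since both overlapping *Tnni1* promoters hold the same matches, against 31.5% of all promoters, and TATAAA in 1 of the 8, that of *Tnnt1*, against 13.6%. The MEF2 and CArG motifs were in 0 of the 8 promoters, against 3.19% and 1.63% of all promoters. Matches of different motifs did not overlap, and a pair of the CCACCC matches in *Tnnc1* shared 1 base.

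Gene counts totalled 36417517 to 40558740 in a KO library and 33605258 to 39134651 in a WT library. The targeted gene, *Hnrnpa2b1*, had a CPM (counts scaled to the library total with TMM factors) of 159, 195 and 249 in KO1, KO2 and KO3 against 225, 229 and 252 in WT1, WT2 and WT3. The log2 fold change, KO over WT throughout, was −0.23 (SE 0.18, adjusted p = 0.381, edgeR), so its RNA level does not check the KO label. The study assessed loss of the protein, which is not analysed here. KO1 stood apart from the other KO libraries in the troponin genes. Over the 7 genes other than *Tnnc2*, log2 CPM minus the WT mean had a median of 0.02 for KO1, −1.33 for KO2 and −1.28 for KO3, compared with 0.22, −0.33 and 0.17 for WT1, WT2 and WT3. All 8 genes together took 1.02%, 0.422% and 0.357% of the counts in KO1, KO2 and KO3 against 0.981%, 0.737% and 0.937% in WT1, WT2 and WT3. KO1 was singled out on these values, so every p-value without KO1 below was read after the fact and is a description of how far 1 library sets a result, not separate evidence. Log2 fold changes without KO1 are given for the 8 troponin genes, and for the pathway genes whose own fold change is printed and then moved by over 1.5-fold.

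*Tnnt2* and *Tnni1* were the genes of the family with lower levels in every KO library than in any WT library. They lie 25.36 kb apart on chromosome 1, with another gene between them. A negative log2 fold change was found for 7 of 8 troponin genes. In the counts, 0 of 8 troponin genes passed an adjusted p of 0.05 with edgeR, where 22.7% of all tested genes passed in either direction and 10.6% were lower in KO. At an unadjusted p under 0.05, 2 troponin genes differed, *Tnnt2* and *Tnni1*, against 39.0% of all genes. DESeq2 called 2, the same *Tnnt2* and *Tnni1*, against 29.5% of the genes it tested. CPM did not overlap between genotypes, lower in KO, for 2 of 8 genes, against 21.6% of all tested genes. In TPM (transcript abundance corrected for length and scaled to a common total), limma called 2 of 8, again *Tnnt2* and *Tnni1*, both lower in KO, against 20.2% of genes called in either direction and 11.8% called lower. Without KO1, 5 of 8 passed as lower in the counts (*Tnnt2*, *Tnnt3*, *Tnni1*, *Tnni2* and *Tnnc1*), against 15.1% of all genes, and 5 of 8 passed in TPM against 14.2%, whereas 0 of 8 passed on either scale without KO2 or without KO3. Calls over all genes fell then too. In the counts they were 2695 without KO2 and 2088 without KO3, against 3361 with all libraries. In TPM they were 1566 and 1419, against 2366. Lower RNA in a culture can come from fewer cells that transcribe a gene or from less RNA in each cell, and these cannot be told apart in bulk RNA.

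**Figure D1:**
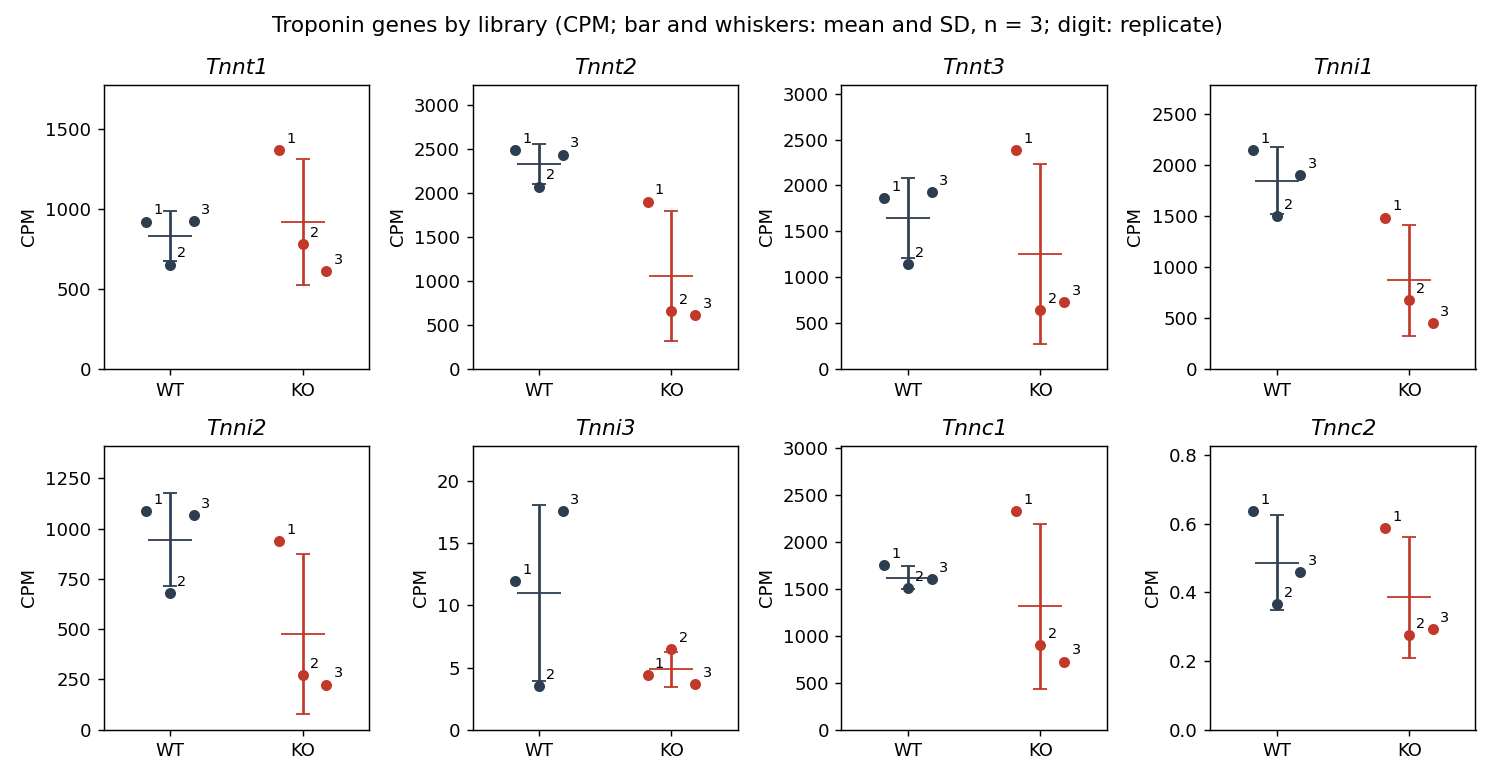
CPM (linear axis from 0) of the 8 troponin genes in WT (dark) and KO (red) libraries. Points are libraries, numbered by replicate, and the bar and whiskers are the mean and SD of 3 libraries. KO1 lies above KO2 and KO3 in every panel but *Tnni3*, and every KO point is below every WT point for *Tnnt2* and *Tnni1*.

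The genes of troponin T, the subunit that binds tropomyosin, did not share one profile. *Tnnt2*, the cardiac and embryonic form, had a CPM of 1902, 653 and 611 in KO1, KO2 and KO3 against 2483, 2073 and 2436 in WT1, WT2 and WT3. All KO libraries lay below all WT libraries, and KO1 was close to the lowest WT library while KO2 and KO3 were far below it. The mean CPM was 1055 ± 734 (SD, n = 3) in KO and 2331 ± 224 in WT, a log2 fold change of −1.14 (SE 0.437, adjusted p = 0.0941, edgeR). In TPM the log2 difference was −1.38 (adjusted p = 0.0256, limma). That TPM call was lost without KO2 (0.0594), KO3 (0.0766), WT1 (0.112), WT2 (0.0511) or WT3 (0.0793). Without KO1 the log2 fold change in the counts was −1.89 (adjusted p = 0.000655, edgeR). Over all alternatives the adjusted p of *Tnnt2* ran from 0.000254 to 0.227 in the counts and from 0.000148 to 0.161 in TPM.

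*Tnnt1*, the slow skeletal form, did not follow *Tnnt2*. Its CPM was 1365, 782 and 612 in KO1, KO2 and KO3 against 920, 651 and 924 in WT1, WT2 and WT3. KO1 was the highest of the 6 libraries and KO3 the lowest, so the genotypes overlapped. The log2 fold change was 0.14 (SE 0.312, adjusted p = 0.759, edgeR), and it was −0.26 without KO1 and −0.02 without WT2, so its sign is not settled. *Tnnt3*, the fast skeletal form, had a CPM of 2381, 637 and 730 in KO1, KO2 and KO3 against 1861, 1139 and 1924 in WT1, WT2 and WT3. KO1 was above every WT library, and KO2 and KO3 were below every one. The log2 fold change of *Tnnt3* was −0.39 (SE 0.505, adjusted p = 0.597, edgeR), and −1.27 without KO1 (adjusted p = 0.00983).

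Troponin I, the inhibitory subunit, was lower in KO2 and KO3 for both skeletal forms. *Tnni1*, the slow form, had a CPM of 1483, 675 and 449 in KO1, KO2 and KO3 against 2142, 1495 and 1902 in WT1, WT2 and WT3. All KO libraries were below all WT libraries, KO1 by a margin of less than 1% of the level of WT2. The mean CPM was 869 ± 544 (SD, n = 3) in KO and 1846 ± 327 in WT, a log2 fold change of −1.09 (SE 0.419, adjusted p = 0.0961, edgeR). In TPM the log2 difference was −1.23 (adjusted p = 0.0308, limma), a call lost without KO2 (0.0719), KO3 (0.0801), WT1 (0.136) or WT3 (0.0893). Without KO1 the log2 fold change in the counts was −1.72 (adjusted p = 0.00279, edgeR). Over all alternatives the adjusted p of *Tnni1* ran from 0.000338 to 0.252 in the counts and from 0.000668 to 0.174 in TPM.

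*Tnni2*, the fast form, had a CPM of 936, 272 and 224 in KO1, KO2 and KO3 against 1087, 679 and 1069 in WT1, WT2 and WT3. KO1 lay within the WT range and the other KO libraries below it. The log2 fold change was −0.99 (SE 0.526, adjusted p = 0.203, edgeR) and −1.94 without KO1 (adjusted p = 0.00142). *Tnni3*, the cardiac form, was scarce in both genotypes, with a CPM of 4.39, 6.46 and 3.69 in KO1, KO2 and KO3 against 12.0, 3.47 and 17.6 in WT1, WT2 and WT3. WT2 was the lowest of all 6 libraries, and WT1 and WT3 were above every KO library. The log2 fold change of *Tnni3* was −1.18 (SE 0.522, adjusted p = 0.135, edgeR) and −1.12 without KO1 (adjusted p = 0.173). Without WT2 it was −1.62 (adjusted p = 0.0211), and the TPM difference then passed too (−1.39, adjusted p = 0.0106, limma). Without WT3 it was −0.71 (adjusted p = 0.394) and the TPM difference −0.39 (adjusted p = 0.539), and no library left out other than WT2 gave a call on either scale.

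Of the genes for troponin C, the calcium sensor, *Tnnc1* had by far the higher deposited values. The CPM of *Tnnc1* was 2328, 899 and 726 in KO1, KO2 and KO3 against 1753, 1505 and 1604 in WT1, WT2 and WT3. KO1 was above every WT library, and KO2 and KO3 were below every one. The log2 fold change was −0.30 (SE 0.417, adjusted p = 0.630, edgeR) and −1.0 without KO1 (adjusted p = 0.00807). *Tnnc2*, the fast form, had only 21, 12 and 12 counts in KO1, KO2 and KO3 against 22, 12 and 17 in WT1, WT2 and WT3. Its log2 fold change was −0.35 (SE 0.459, adjusted p = 0.609, edgeR) and −0.78 without KO1.

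The counts and the TPM of *Tnnc2* were not on a common scale with those of the other genes. Of its 800 exonic bases, 592 (74.0%) are also exon of *Ube2c*, a ubiquitin-conjugating enzyme of mitosis encoded on the opposite strand. *Tnnc2* had 0.266 to 0.857 counts for each unit of TPM, whereas the other 7 troponin genes had 33.7 to 78.3. *Ube2c* had 1.51 to 7.60 counts for each unit of TPM. In TPM, *Tnnc2* read 78.9, 24.2 and 14.0 in KO1, KO2 and KO3 against 33.7, 23.1 and 63.5 in WT1, WT2 and WT3, with KO1 highest and KO3 lowest. Whether strand was used in counting is not given in the sources used here, so reads of *Tnnc2* and *Ube2c* cannot be told apart and the level of *Tnnc2* is uncertain on both scales. *Tnni3* shares 86 exonic bases (4.17%) with Dnaaf3.

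**Figure D2:**
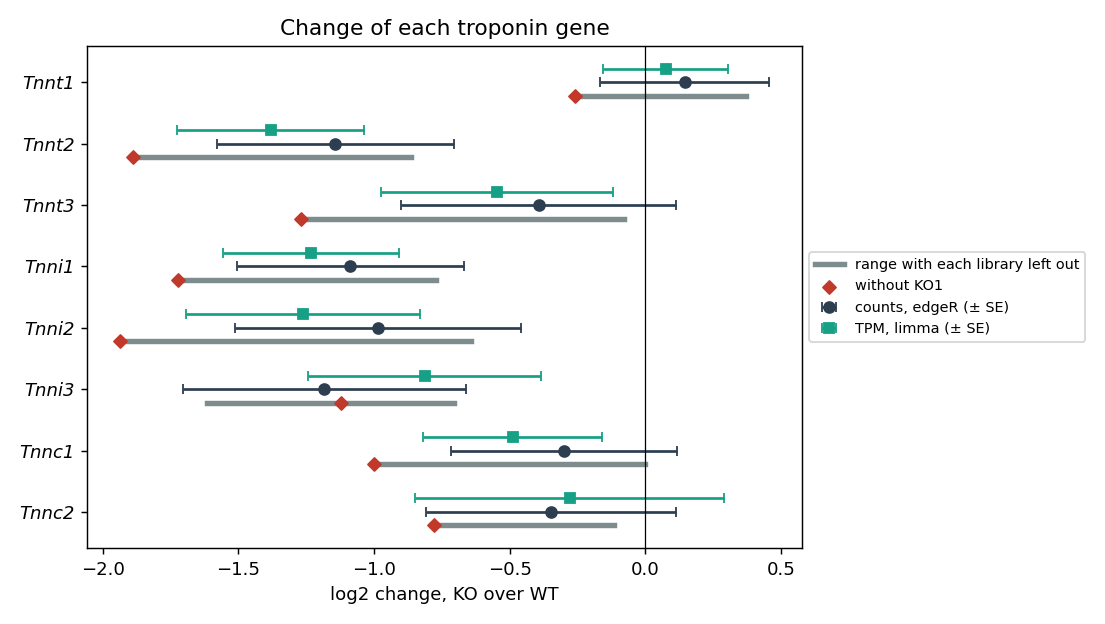
Change of each troponin gene, KO over WT, on the log2 scale. Circles are counts (edgeR) and squares TPM (limma), both with the standard error, the grey bar is the range of the count value with each library left out in turn, and the red diamond is the value without KO1. Without KO1, *Tnnt2* was at −1.89, *Tnni1* at −1.72 and *Tnnt1* at −0.26.

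Levels of different genes were compared in TPM. In the WT libraries the order by mean TPM was *Tnnc1* (1515 ± 138, SD, n = 3), *Tnnt2* (1382 ± 111), *Tnni1* (1223 ± 208), *Tnnt3* (1086 ± 255), *Tnni2* (851 ± 188) and *Tnnt1* (595 ± 94.6), with *Tnnc2* (40.1 ± 20.9) and *Tnni3* (8.64 ± 5.65) far below. Each neighbouring pair among the first 6 overlapped in range over the WT libraries, whereas *Tnnt1* and *Tnnc2* did not overlap, nor did *Tnnc2* and *Tnni3*. The place of *Tnnc2* above *Tnni3* holds in TPM only. In the counts *Tnnc2* was below *Tnni3* in every library (12 to 22 against 114 to 652), so their order is uncertain. *Tnnc1* was the most abundant troponin RNA in each of the 6 libraries. *Tnnt1* was below *Tnni2* in all 3 WT libraries and above it in all 3 KO libraries. Among all genes, the 6 abundant troponin genes ranked from 28th to 217th by TPM in a library.

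The share of each gene in its subunit's summed TPM is free of library scaling, and in troponin T the KO1 share of *Tnnt2* was close to those of KO2 and KO3. *Tnnt2* made up 29.3%, 27.3% and 27.1% of troponin T TPM in KO1, KO2 and KO3 against 43.6%, 50.0% and 42.7% in WT1, WT2 and WT3. All KO libraries were below all WT libraries, and the KO values lay within a narrow band. The mean share was 27.9% ± 1.25 (SD, n = 3) in KO and 45.5% ± 3.99 in WT, a difference of −17.6 percentage points (exact two-sided permutation test, p = 0.1, the smallest that 3 libraries against 3 allow). *Tnnt1* made up 25.3%, 40.7% and 34.1% in KO1, KO2 and KO3 against 19.6%, 19.1% and 19.5% in WT1, WT2 and WT3. All KO libraries were above all WT libraries, with KO1 nearest to them. The difference in the *Tnnt1* share was 14.0 points (33.4% ± 7.76 against 19.4% ± 0.282, exact permutation p = 0.1). *Tnnt3* held 38.7% ± 6.70 in KO and 35.1% ± 3.72 in WT, and its libraries overlapped (exact permutation p = 0.4).

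The design cannot pass 0.05 with this test, and over the 7 shares tested the adjusted p was 0.35 for *Tnnt2* and *Tnnt1*. Leaving out any single library kept the difference between −19.0 and −15.3 points for *Tnnt2* and between 10.3 and 18.0 points for *Tnnt1*. The shares of a subunit sum to 100%, so these values are not independent of each other. The summed TPM of troponin T was 3453, 1335 and 1482 in KO1, KO2 and KO3 against 3446, 2572 and 3171 in WT1, WT2 and WT3, so the total in KO1 was as high as in any WT library.

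Troponin I showed no such difference between its genes. *Tnni1* made up 53.7%, 64.6% and 59.7% of troponin I TPM in KO1, KO2 and KO3 against 58.8%, 61.7% and 56.3% in WT1, WT2 and WT3. The KO libraries spanned the whole WT range. The mean difference was 0.399 points (59.3% ± 5.44 against 58.9% ± 2.68, exact permutation p = 0.9). *Tnni2* made up 40.2% ± 5.67 in KO and 40.7% ± 2.44 in WT (exact permutation p = 0.9, n = 3). *Tnni3* made up 0.476% ± 0.236 in KO and 0.400% ± 0.251 in WT (exact permutation p = 0.8, n = 3). In troponin C, *Tnnc1* made up 97.2% ± 1.01 in KO and 97.4% ± 1.48 in WT (exact permutation p = 0.9, n = 3), with the limit on *Tnnc2* given above.

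**Figure D3:**
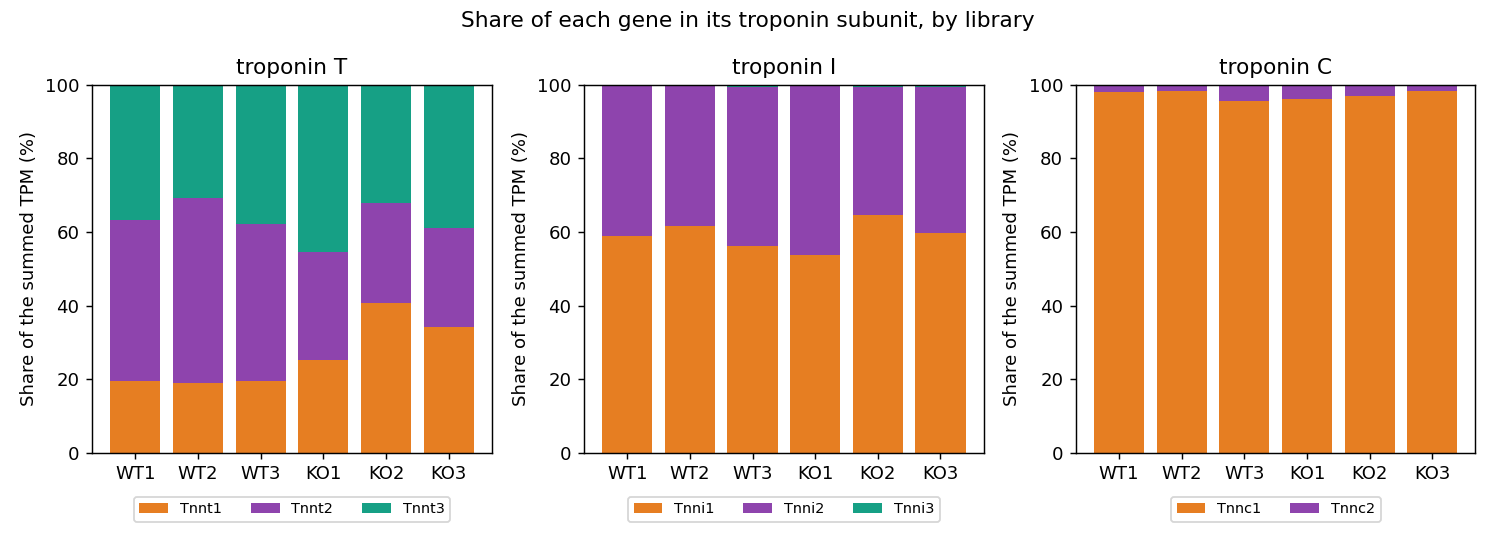
Share of each gene in the summed TPM of its troponin subunit (%, bars from 0 to 100), by library. The *Tnnt2* band is 42.7% to 50.0% of troponin T in the WT libraries and 27.1% to 29.3% in the KO libraries, whereas the division of troponin I between *Tnni1* and *Tnni2* overlaps between genotypes.

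Ratios of TPM within a library were formed for 7 gene pairs, chosen after the levels had been seen and given here without a test. The ratio of *Tnnt2* to *Tnnt1* was 1.16, 0.669 and 0.794 in KO1, KO2 and KO3 against 2.23, 2.62 and 2.19 in WT1, WT2 and WT3, with no overlap. *Tnni1* over *Tnnt1*, both slow forms, was 1.04, 0.804 and 0.683 in KO1, KO2 and KO3 against 2.14, 2.11 and 1.92 in WT1, WT2 and WT3. The slow troponin T and slow troponin I genes thus stood in different proportion in the genotypes, in all libraries. *Tnni2* over *Tnnt3*, both fast forms, was 0.495, 0.551 and 0.400 in KO1, KO2 and KO3 against 0.792, 0.807 and 0.759 in WT1, WT2 and WT3, again with no overlap. *Tnnt2* over *Tnnt3* was 0.646 to 0.851 in KO and 1.13 to 1.62 in WT. *Tnnt2* over *Tnni1*, the pair on chromosome 1, was 1.12, 0.832 and 1.16 in KO1, KO2 and KO3 against 1.04, 1.24 and 1.14 in WT1, WT2 and WT3, and overlapped. *Tnni1* over *Tnni2* and *Tnnt3* over *Tnnt1* overlapped too.

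**Figure D4:**
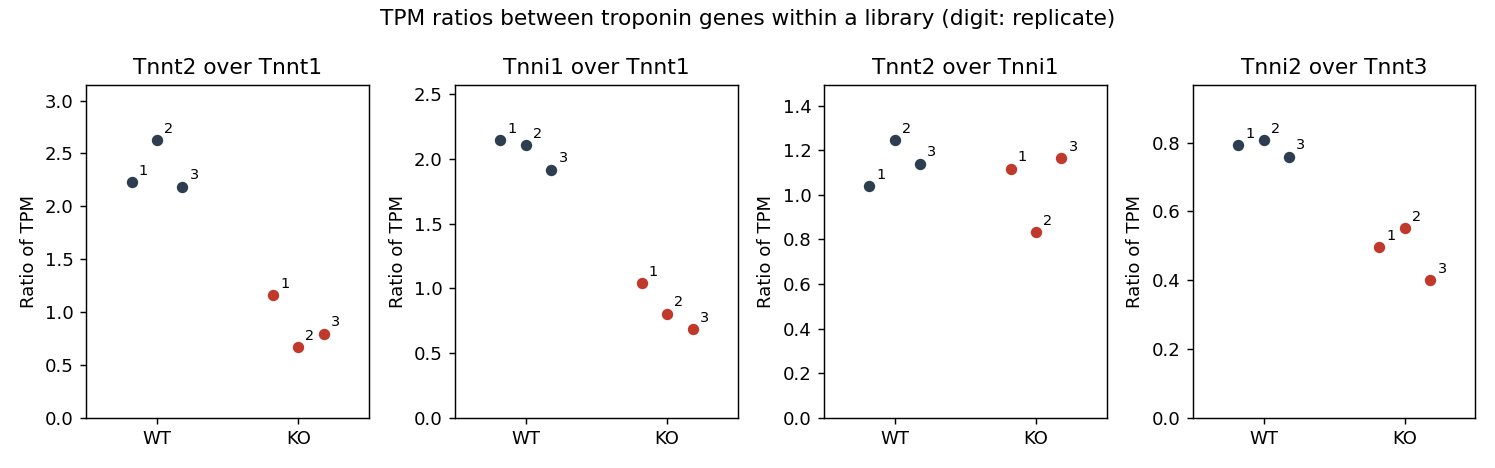
Ratio of TPM between 4 pairs of troponin genes within each library (linear axes from 0, points numbered by replicate). *Tnnt2* over *Tnnt1*, *Tnni1* over *Tnnt1* and *Tnni2* over *Tnnt3* do not overlap between WT and KO, and *Tnnt2* over *Tnni1* does.

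Likeness of profile was measured as the root mean square difference of centred log2 CPM over the 6 libraries. Within the family, *Tnnt2* was nearest to *Tnni1* (0.18) and *Tnni2* (0.19), and *Tnni1* was 0.21 from *Tnni2*. *Tnnt1* was 0.75 from *Tnnt2*, 0.69 from *Tnni1* and 0.36 from *Tnnc1*. Among 8864 candidate genes, the nearest to *Tnnt2* were *Pdlim1* (0.09), *Ubash3b* and *Actc1* (both 0.11). For *Tnni1* they were *Klhl40* (0.08), *Cacng1* and *Sntb1* (both 0.11), and for *Tnni2* *Casq2* (0.15), *Steap3* and *Actc1* (both 0.17). For *Tnnt3* they were *Trim72*, *Dhcr7* (both 0.16) and *Slc16a1* (0.17), and for *Tnnc1* *Hebp1* (0.10), *Slc16a1* (0.11) and *Lrrc1* (0.12). For *Tnnt1* they were *C1galt1c1* (0.09), *Slc35e4* (0.10) and Dbi (0.12). The nearest to *Tnni3* were farther off, *Ndrg2* (0.36), *Tcn2* (0.39) and *Mgst3* (0.41). The 12 to 22 counts of *Tnnc2* in a library are too few for its profile to be compared.

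The proteins that troponin works with on the thin filament were mostly uncalled, like troponin itself. Of 16 tested partners (actins, tropomyosins, nebulin, tropomodulins, leiomodins and their Kelch proteins, cofilin, capping protein and alpha-actinins), 1 fell, 0 rose and 15 did not pass with edgeR, a share of 6.25% called against 22.7% of all genes, with a median log2 fold change of −0.45 against 0.03 over all tested genes. At an unadjusted p under 0.05, 5 differed (39.0% of all genes), and 4 passed with DESeq2 (29.5%). The gene that fell was *Actn2*, the alpha-actinin of the Z-disc, with a CPM of 63.6, 51.8 and 30.0 in KO1, KO2 and KO3 against 364, 269 and 480 in WT1, WT2 and WT3. Every KO library, KO1 included, was far below WT (log2 fold change −2.94, SE 0.326, adjusted p = 0.00212, edgeR). The tropomyosins that troponin T binds had values of −0.57 for *Tpm1*, −0.50 for *Tpm2* and 0.19 for *Tpm3*. Without KO1, *Tpm1* was at −0.94 (adjusted p = 0.00998, edgeR) and *Tpm2* at −0.83 (0.0483). *Acta1*, skeletal alpha-actin, had a CPM of 7023, 2553 and 2304 in KO1, KO2 and KO3 against 4188, 2958 and 3845 in WT1, WT2 and WT3. KO1 was above every WT library and KO2 and KO3 below every one. *Acta1* had a log2 fold change of 0.11 (adjusted p = 0.871, edgeR), and −0.60 without KO1 (adjusted p = 0.0912). Without KO1, 8 partners fell, against 15.1% of all genes.

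Genes named for slow and fast fibres were called about as often as all tested genes. Of 9 tested slow fibre genes, 1 rose and 1 fell (median −0.57), a share of 22.2% against 22.7% of all genes. *Myl2*, the slow and cardiac regulatory light chain, had a CPM of 82.7, 3.73 and 12.4 in KO1, KO2 and KO3 against 1.27, 0.914 and 1.40 in WT1, WT2 and WT3. All KO libraries were above all WT libraries, KO1 by the most (log2 fold change 4.77, adjusted p = 0.0204, edgeR), and the call was lost without WT1 (0.0880), WT2 (0.0655) or WT3 (0.0778). KO1 carried much of its size, and without KO1 the log2 fold change was 2.74 (adjusted p = 0.00465). *Myh7b*, a slow-type myosin heavy chain, fell (−2.21, adjusted p = 0.00257, edgeR), and it passed with each library left out in turn. Without KO1, 6 slow fibre genes fell, where 15.1% of all genes did. Without KO2, 2 rose, in a fit that called 2695 of all genes in either direction, against 3361 with all libraries.

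Of 11 tested fast fibre genes, 3 fell and 0 rose (median −0.55), a share of 27.3% against 22.7% of all genes. They were *Myl1*, the fast essential light chain (−2.39, adjusted p = 0.0297, edgeR), *Atp2a1*, the fast calcium pump (−1.0, 0.0470), and *Myoz1*, a Z-disc protein (−1.52, 0.0308). *Myoz1* had a low CPM of 0.951, 0.595 and 0.513 in KO1, KO2 and KO3 against 2.14, 1.28 and 2.48 in WT1, WT2 and WT3. None of the 3 passed without KO2, KO3, WT1 or WT3, where the adjusted p was 0.0616 to 0.102 for *Myl1*, 0.108 to 0.136 for *Atp2a1* and 0.0732 to 0.116 for *Myoz1*. Without KO1, 7 fast fibre genes fell (15.1% of all genes fell), and *Myl1* was at −3.47 (adjusted p = 0.000366). Of 6 developmental and cardiac contractile genes (*Myh3*, *Myh8*, *Actc1*, *Myl4*, *Ankrd1* and *Mybph*), 0 passed with edgeR, against 22.7% of all genes, and the median was −1.17. At an unadjusted p under 0.05, 3 differed (39.0% of all genes), 2 passed with DESeq2 (29.5%), and 5 fell without KO1, where 15.1% of all genes did. *Actc1*, cardiac alpha-actin, had a CPM of 1248, 487 and 380 in KO1, KO2 and KO3 against 1599, 1284 and 1827 in WT1, WT2 and WT3, with no overlap (log2 fold change −1.16, adjusted p = 0.0890, edgeR, and −1.86 without KO1, adjusted p = 0.00117).

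Transcription factors known to act on troponin genes included both rises and falls. Of 20 tested, 3 rose, 5 fell and 12 did not pass, a share of 40.0% called against 22.7% of all genes (12.1% higher and 10.6% lower), with a median of −0.07. *Mef2c*, a MADS-box activator of muscle genes, had a CPM of 17.1, 2.34 and 1.17 in KO1, KO2 and KO3 against 80.8, 162 and 189 in WT1, WT2 and WT3. All KO libraries were below all WT libraries (log2 fold change −4.40, SE 0.948, adjusted p = 0.0169, edgeR). *Myod1*, the myogenic determination factor, rose, with a CPM of 171, 270 and 194 in KO1, KO2 and KO3 against 98.5, 126 and 96.0 in WT1, WT2 and WT3 (0.99, adjusted p = 0.0141). *Myog*, which drives terminal differentiation, was at 0.06 (adjusted p = 0.863), and at −0.10 without KO1 (0.770). *Prox1*, a homeobox regulator of slow fibre genes, also rose (2.85, adjusted p = 0.00838, edgeR). *Tead2*, an MCAT-binding factor, fell (−0.96, 0.0105), as did the TEAD cofactor gene *Vgll2* (−2.57, 0.0170) and the myogenic factor genes *Myf5* (−1.50, 0.0303) and *Myf6* (−3.58, 0.0162). *Vgll2* and *Myf6* had CPM values below 2 and below 4 in every library.

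Several of these calls were lost with a library left out. Without WT1, *Mef2c* still passed and the other named factors did not, with adjusted p-values from 0.0515 for *Prox1* to 0.0789 for *Myod1*. Of the named factors, *Prox1* and *Tead2* passed without WT3, where *Mef2c* had an adjusted p of 0.0556. *Myf5* was lost without WT2 (0.0826) and without KO3 (0.0786), and was at −2.11 without KO2. Without KO1 the log2 fold change was −6.35 for *Mef2c* (adjusted p = 0.000159), −5.08 for *Myf6* (0.00118) and −3.21 for *Vgll2* (0.00505).

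**Figure D5:**
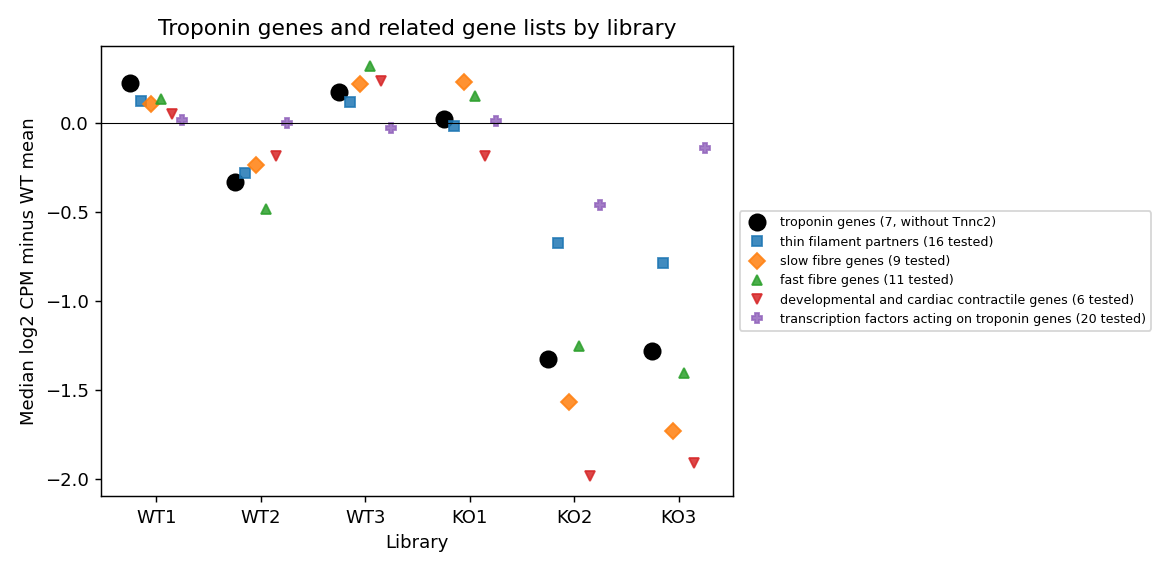
Median over each gene list of log2 CPM minus the WT mean, by library, with the number of tested genes in brackets. The troponin genes were at 0.02 for KO1, −1.33 for KO2 and −1.28 for KO3, and the slow, fast and developmental lists were likewise lower in KO2 and KO3 than in KO1, whereas the transcription factors lay between −0.46 and 0.02 in all libraries.

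Markers of the cells these cultures could hold were read beside the troponin values, where 22.7% of all tested genes were called, 12.1% higher and 10.6% lower in KO. The 5 skeletal myogenic markers summed to a CPM of 3269 to 5856 in KO and 4252 to 5200 in WT, and 2 of 5 rose (*Myod1* and *Cdh15*). The 11 cardiomyocyte markers summed to 38.5 to 73.1 in KO and 88.9 to 94.4 in WT, and *Nppa*, *Nppb*, *Myl7*, *Tbx5* and *Hcn4* were at or under 3 counts in every library, *Tbx5* and *Hcn4* at 0. The cultures thus held *Tnnt2* RNA with the defining heart markers at or near 0, and of the list *Gata4* fell (−1.60, adjusted p = 0.00635, edgeR). The 6 fibroblast markers summed to 5501 to 8808 in KO and 3485 to 4555 in WT, a sum made up almost wholly of *Col3a1*, which did not pass (adjusted p = 0.132, edgeR), while *Col1a1* and Dcn overlapped between genotypes. Of the list, 2 rose, *Pdgfra* (1.17, adjusted p = 0.0257, edgeR) and *Dpt* (5.88, 0.00662). The 8 markers of undifferentiated or cycling myoblasts summed to 207 to 399 in KO and 201 to 253 in WT, where *Pax7* and *Id1* rose and *Myf5* fell. *Mki67* had a CPM of 55.9, 115 and 126 in KO1, KO2 and KO3 against 44.3, 53.8 and 69.4 in WT1, WT2 and WT3 (adjusted p = 0.0860, edgeR). *Mki67* and *Top2a* were thus above every WT library in KO2 and KO3, where most troponin genes were low, but not in KO1. *Ccnb1* overlapped between genotypes. The 6 smooth muscle markers summed to a CPM of 4990 to 6643 in KO and 6311 to 6629 in WT, mostly *Acta2* and *Des*. *Myh11* did not overlap, at 0.616, 0.710 and 0.561 in KO1, KO2 and KO3 against 0.318, 0.518 and 0.539 in WT1, WT2 and WT3. With edgeR 0 of 6 passed, 0 differed at an unadjusted p under 0.05 (39.0% of all genes), and 0 passed with DESeq2 (29.5%). The part of these cell states in the troponin values was not tested.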

How the data were processed

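The authors aligned reads with STAR and deposited raw read counts per gene for 6 libraries, without normalization. StringTie values deposited for each library gave TPM. The deposited FPKM and coverage columns were not used. Genome builds are named as mm9 in the submitters' processing notes and GRCm39 in the methods, whereas deposited coordinates fit GRCm38 (83.2% of 45137 genes equal GENCODE M21). Counts were TMM-scaled, filtered with filterByExpr and tested with edgeR 4.0.16 (two-sided quasi-likelihood test, Benjamini-Hochberg over 14828 genes, threshold 0.05, R 4.3.3). TPM were tested with limma 3.58.1 on log2(TPM + 1), for genes at 1 TPM or more in 3 or more libraries, so TPM differences of low genes are understated. Steps were tested on simulated data. Members, lists and tests were chosen with earlier results of these data known. Named genes were the 8 members, called genes of the 5 lists, called genes within 100 kb, and the 3 nearest profiles to each member (mean log2 CPM of 3 or more) other than *Tnnc2*. Uncalled list genes and markers named beside them were chosen after their values were seen. A single gene of the lists is counted but not reported by name here. Alternatives were DESeq2 1.42.0, RLE scaling, other filters, a pseudocount of 0.1, each library left out, counts for shares, and a replicate block. The annotation release and strand setting of the counter are not given in the sources used here.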

Additional observations from a re-analysis of the deposited data

How the results depend on the processing

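In the counts, genes called by edgeR ranged from 933 (without WT1) to 4712 (without KO1) with each library left out, and troponin genes called from 0 to 5. DESeq2 called 2 troponin genes, no filter on low counts 4 (*Tnnt2*, *Tnni1*, *Tnni2* and *Tnni3*), and the replicate block 1 (*Tnnt2*, adjusted p = 0.0499). Over all genes the main fit called 3361 in either direction. DESeq2 called 4373 of all genes, RLE scaling 3383, no filter 4538 and the replicate block 2520. The list counts below are to be read beside these totals. In TPM, 482 to 3134 genes and 0 to 5 troponin genes were called with each library left out, and 1056 genes and 0 troponin genes with no filter (*Tnnt2* 0.161, *Tnni1* 0.174). The lists lower in KO gave, with each library left out, 1 to 8 thin filament partners, 1 to 6 slow, 0 to 7 fast and 0 to 5 developmental genes and 1 to 8 transcription factors, and higher in KO 0 to 2 slow genes and 0 to 3 transcription factors. Thin filament partners lower in KO were 4 with DESeq2, 2 with RLE scaling, 6 with no filter and 2 with the replicate block. Slow fibre genes lower in KO were 5 with no filter and 2 with the block, and 2 were higher with no filter. With no filter, 5 fast fibre genes and 4 developmental genes were lower, the latter 2 with DESeq2 and 1 with the block. Genes within 100 kb, with alternatives chosen after seeing the data, ranged from 1 to 6 lower and 0 to 5 higher with each library left out, were 7 lower and 7 higher with no filter, and 1 higher with the block. The cause of these differences was not tested.

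In the troponin genes and their shares, signs reversed for small values only. Larger reversals occurred in the lists without KO1. The fast fibre gene *Casq1* went from 0.20 to −2.17 (adjusted p = 0.0055, edgeR), and *Mybph* from 0.05 to −0.71 (0.0113). With each library left out, *Tnnt1* ranged from −0.26 to 0.37 in the counts and from −0.17 to 0.22 in TPM, and *Tnnc2* from −0.96 to 0.25 in TPM. The difference in share ranged from −2.23 to 3.20 points for *Tnni1*, −3.41 to 2.24 for *Tnni2*, −0.0421 to 0.209 for *Tnni3* and −1.06 to 0.313 for *Tnnc1*, and from counts in place of TPM the *Tnni1* difference was −0.00885. The troponin T shares kept their direction, with −16.8 points for *Tnnt2* and 13.8 for *Tnnt1* from counts. *Tnnc2* could not be fitted with at least 1 CPM in at least 3 libraries, since no library reached it. Replicate numbers were not shown to pair the libraries: same-numbered libraries had correlations of deviations of 0.137, −0.116 and 0.0041, and KO2 and KO3 correlated best with another number. The replicate block gave 2520 genes called in the counts and 2092 in TPM, and 3 troponin genes in TPM. The smallest p of the sign-flip test of paired shares was 0.25, which *Tnnt2*, *Tnnt1* and *Tnnt3* reached. Depth limits *Tnnc2*, with at most 22 counts in a library.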

Other observations

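Within 100 kb of a troponin gene lay 56 other genes, of which 36 were tested, 3 rose and 4 fell, a share below the 22.7% of all tested genes that were called, with a median log2 fold change of 0.11. They are named as values at these positions, with nothing particular to the loci. Beside the chromosome 7 pair of *Tnni2* and *Tnnt3*, *H19*, an imprinted noncoding RNA, was at −2.18 (adjusted p = 0.0181, edgeR), *Lsp1*, a leukocyte actin-binding protein, at −1.08 (0.0105) and *Syt8*, a synaptotagmin, at 2.47 (0.0159), so neighbours of that pair went in both directions. *Syt8* had a low CPM of 3.41, 0.893 and 2.10 in KO1, KO2 and KO3 against 0.347, 0.366 and 0.431 in WT1, WT2 and WT3. The other called neighbours were *Phlda3* (−0.79, 0.0125) near *Tnni1* and *Tnnt2*, *Smim4* (−0.97, 0.0466) near *Tnnc1*, and *Ctsa* (0.57, 0.0302) and *Zswim3* (0.98, 0.0410) near *Tnnc2*. Without WT1, *Lsp1* alone passed among them, and the adjusted p of the others was 0.0595 to 0.159. Other libraries left out ended calls too. Without WT3, *H19* (0.0561), *Syt8* (0.0621), *Smim4* (0.132), *Ctsa* (0.0521) and *Zswim3* (0.0985) were lost, and without WT2, *Syt8* (0.0516), *Smim4* (0.0691), *Ctsa* (0.0919) and *Zswim3* (0.115). Without KO1, *Zswim3* (0.0711) was lost, without KO2, *Ctsa* (0.0664) and *Zswim3* (0.0539), and without KO3, *Smim4* (0.0994) and *Zswim3* (0.0581).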
